A study of Mus musculus with 4 samples.

Results

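The cells described here are the dendritic cells that the authors' annotation names mcDC1, read as migratory type 1 conventional dendritic cells. They were taken by that name from the annotation of antigen-presenting cells (APCs) in lymph nodes that drain a tumor, and number 380 of the 1731 annotated APCs and of the 5825 annotated cells in all. Of these, 214 came from the RNA library of mice fed chow with RGX-104, a drug that activates liver X receptors (LXR), and 166 from the RNA library of mice fed control chow. Both groups were wildtype mice that had been injected with tumor cells, and the nodes were taken on day 8; the RGX-104 chow began on day 3. T cells and APCs had been sorted by flow cytometry and read with 10x 5' chemistry. The strain, age and sex of the mice, the tumor line and the number of mice pooled in a library are not given in the labels, and each chow has 1 RNA library. With no replicate there is no test between chows: every interval below is a 95% counting interval that covers counting error only and not the spread between mice or libraries.

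Type 1 conventional dendritic cells (cDC1) are the dendritic cells best known for presenting tumor antigen to CD8 T cells, which they do by loading peptides of engulfed cells on class I molecules. In tissue they take up dying cells, and on maturation they switch on the chemokine receptor Ccr7, travel along lymph vessels and arrive in the draining node as migratory cells, where they meet cDC1 that reside in the node. LXR are nuclear receptors that bind oxysterols and switch on genes of cholesterol export and fatty acid synthesis.

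Levels are given as CPM, unique molecular identifiers (UMIs) of a gene per 1000000 UMIs, over the summed mcDC1 of 1 library. The RGX-104 mcDC1 held 2051144 UMIs, and their cells a median of 8988.5 UMIs and 2585.5 genes, and the control mcDC1 held 1437662 UMIs, with 7686 and 2480.5 a cell. Median mitochondrial percent was 0.970 in RGX-104 and 0.687 in control mcDC1, and lay between 1.63 and 2.45 in the other 5 compared types. A cell cycle score above 0 was present in 12.6% of RGX-104 and 12% of control mcDC1. No barcode of an mcDC1 was shared by the libraries. The names mcDC1, rcDC1, mcDC2, rcDC2, mLC and mono are the authors' and are not spelled out in their deposited table.

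The LXR response is read here beside the promoters of its members, so the windows of 250 bases before the start site are shown for 2 LXR targets and 1 sterol gene that were higher in RGX-104 mcDC1 and whose window holds the letters searched. LXR binds as a dimer with RXR to direct repeats of a hexamer with a spacer of 4 bases, searched as 2 AGGTCA hexamers in the same direction with any 4 bases between them, on both strands, with up to 3 mismatches in their 12 letters. The windows are from RefSeq promoters of GRCm38.p6 and read 5′ to 3′ in the direction of the gene, with the matching 16 bases in capitals. Abca1, the exporter of cholesterol to apolipoproteins, has its window at chr4:53159896-53160145 on the minus strand, with the match starting 67 bases before the start site and lying on the opposite strand to the gene. Srebf1, which drives the genes of fatty acid synthesis, has 1 of its windows at chr11:60210472-60210721 on the minus strand, with the match starting 182 bases before the start site, also on the opposite strand. Insig1, the membrane protein that holds sterol regulators in the endoplasmic reticulum, has its window at chr5:28071162-28071411 on the plus strand, with the match 115 bases before the start site, on the strand of the gene.
Abca1: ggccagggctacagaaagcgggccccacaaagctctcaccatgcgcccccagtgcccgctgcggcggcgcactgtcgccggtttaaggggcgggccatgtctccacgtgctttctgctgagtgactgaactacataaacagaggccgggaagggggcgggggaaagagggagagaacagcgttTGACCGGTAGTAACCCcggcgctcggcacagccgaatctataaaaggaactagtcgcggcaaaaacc
Srebf1: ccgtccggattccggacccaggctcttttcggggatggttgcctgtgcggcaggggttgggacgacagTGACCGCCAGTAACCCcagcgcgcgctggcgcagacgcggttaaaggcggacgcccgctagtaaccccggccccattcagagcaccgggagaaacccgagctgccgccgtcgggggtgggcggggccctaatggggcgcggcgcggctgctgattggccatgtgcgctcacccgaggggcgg
Insig1: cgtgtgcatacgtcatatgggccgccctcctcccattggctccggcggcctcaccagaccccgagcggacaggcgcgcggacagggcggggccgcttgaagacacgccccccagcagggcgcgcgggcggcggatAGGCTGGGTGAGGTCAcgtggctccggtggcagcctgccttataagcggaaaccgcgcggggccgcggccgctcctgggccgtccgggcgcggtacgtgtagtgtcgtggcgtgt
Such a match stood in 3 of the 7 promoters, of 5 genes, of LXR targets that were higher in RGX-104 mcDC1, which belong to Abca1, Fasn and Srebf1. It also stood in 3 of the 8 promoters, of 7 genes, of cholesterol genes that were higher, which belong to Insig1, Pmvk and Tm7sf2. Over all listed LXR targets it stood in 6 of 25 promoters (24%), and over all listed cholesterol genes in 6 of 20 (30%). Of all 32851 promoters, 6081 or 18.5% held one, so the letters are common. With up to 2 mismatches 2.57% of all promoters held a match and none of the LXR targets did, and the wider limit was chosen after that was seen. A match is a run of letters and not a measured binding site.

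The label was first set beside its markers. Ccr7, the receptor that guides cells into lymph nodes, stood at 3187 CPM in RGX-104 and 3563 CPM in control mcDC1 and was detected in 99.5% and 98.2% of cells. Fscn1, the actin bundler of mature dendritic cells, stood at 4488 and 5725 CPM and was detected in 98.6% and 97.6% of cells. Irf8, the transcription factor that cDC1 depend on, stood at 654 and 521 CPM, above its level in mcDC2 (328 and 216 CPM), and below that in rcDC1 (1087 and 1188 CPM). Batf3, the partner of Irf8 in cDC1 development, stood at 384 and 399 CPM in mcDC1, against 179 and 213 CPM in rcDC1.

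The surface markers of cDC1 were near 0. Xcr1, the chemokine receptor that defines cDC1, had 9 UMIs in 4 RGX-104 mcDC1 and 6 UMIs in 1 control mcDC1, or 4.39 and 4.17 CPM, against 354 and 297 CPM in rcDC1. The share of cells with an Xcr1 UMI was 1.87% in RGX-104 and 0.602% in control mcDC1. In T cells, which lack the receptor and had median depths of 5048 and 4944 UMIs, it was 0.351% and 0.191%. These lie within the interval of the control mcDC1 share (0.0153% to 3.31%). The 6 control UMIs were all in 1 cell, however, so a share of cells does not show them to be background. Cadm1, an adhesion molecule of cDC1, stood at 10.7 and 6.26 CPM against 181 and 184 CPM in rcDC1. Clec9a, the receptor for actin exposed on dead cells, stood at 15.6 and 16 CPM in mcDC1, 352 and 335 CPM in rcDC1, and 1.03 and 0 CPM in mcDC2. Of the 5 markers, Irf8, Ccr7 and Fscn1 were thus present here, and Xcr1 and Cadm1 close to absent. Ccr7 and Fscn1 were high in all migratory types, so they do not set mcDC1 apart from mcDC2. Irf8, and Clec9a at a low level, stood above mcDC2. The summed cDC1 identity list did not set the migratory types apart. It stood at 2623 and 2365 CPM in mcDC1, 2563 and 2048 CPM in mcDC2, and 2730 and 2415 CPM in mLC. The authors' basis for the name mcDC1 is not given in the labels, and it is used below as their name.

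Markers of neighbouring types were low in part. Cd207, the langerin of Langerhans cells, stood at 1.46 CPM in RGX-104 and 0.696 CPM in control mcDC1, against 84.3 and 53.5 CPM in mLC. Sirpa, a receptor of type 2 cells, stood at 26.8 and 20.2 CPM against 94.5 and 115 CPM in mcDC2. The 17 markers of type 2 cells summed to 3444 and 4735 CPM in mcDC1, against 5212 and 5303 CPM in mcDC2 and 298 and 313 CPM in rcDC1. Most of the sum in mcDC1 came from S100a4 (922 and 1171 CPM), Tmem176a (1027 and 1580 CPM) and Tmem176b (1253 and 1811 CPM), which with Irf4 were at least 2-fold higher than in rcDC1 in both libraries, while Clec10a, Clec4a4 and Clec4a2 were at 0. Of the 8 markers measured against mcDC2, Sirpa, Klf4 and Ccl17 were at least 2-fold lower in mcDC1 in both libraries and none higher. The 15 T cell markers summed to 117 and 124 CPM, of which Cd8a, which rcDC1 also carry, made 48.8 and 50.8 CPM. The 12 B cell markers summed to 153 and 133 CPM. The 16 macrophage and monocyte markers summed to 85.3 and 136 CPM, with Fcgr1, Trem2 and Cd5l at 0 in both libraries and C1qa at 3 and 5 UMIs.

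**Figure D1:**
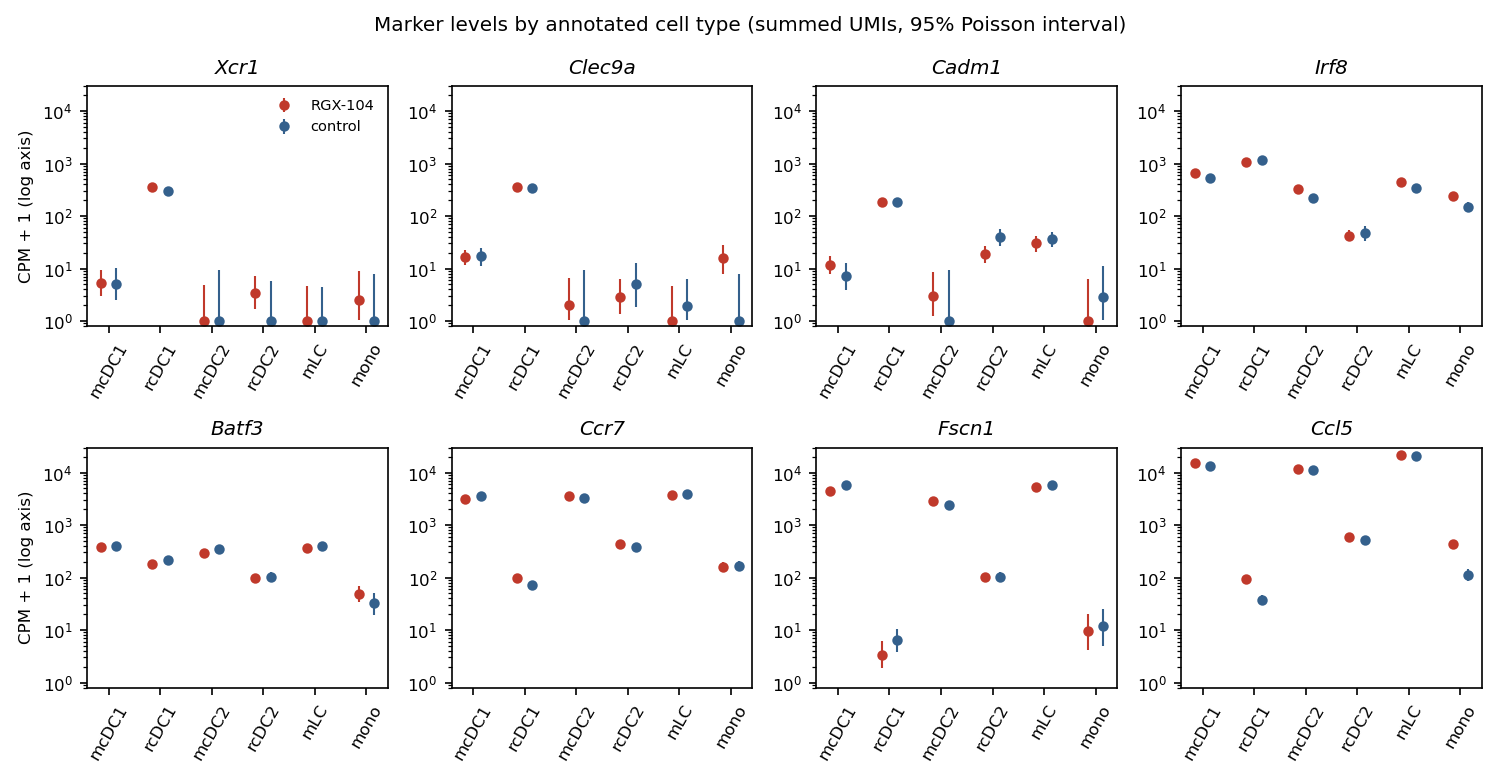
Levels of 8 genes in the 6 compared APC types, as CPM + 1 on a log axis with 95% Poisson intervals; RGX-104 is red and control blue. Xcr1, Clec9a and Cadm1 are high in rcDC1 and low in mcDC1, while Ccr7, Fscn1 and Ccl5 are high in all 3 migratory types.

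A few cells stood apart from the rest. One RGX-104 mcDC1 with 15676 UMIs carried the program of neutrophil precursors, and 1 control mcDC1 with 37527 UMIs carried that of rcDC1. The first gave at least 99% of the UMIs of Camp (484), Elane (389), S100a9 (362) and S100a8 (332), all granule or calcium-binding proteins of neutrophils that were at 0 in control mcDC1, so these values describe 1 cell. The second gave 76.2% of the control UMIs of Wdfy4, a gene cDC1 need for cross-presentation, and 67.6% of those of Apoe came from a single control cell. Values that rest on 1 cell are named as such below.

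By number, the shares of mcDC1 among APCs on the 2 chows differed by less than counting error. They were 22.6% of annotated APCs in the RGX-104 library (19.9 to 25.3) and 21.2% in the control library (18.4 to 24.3), a ratio of 1.06 (0.863 to 1.31). Among cDC1 of both kinds they were 60.8% and 55.1%, a ratio of 1.10 (0.896 to 1.36), and among the migratory types 47.3% and 45.0%, a ratio of 1.05 (0.855 to 1.30). The share follows the sort and the authors' selection of cells, and says nothing of cells per node.

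Against rcDC1, the closest cells by name, mcDC1 differed widely, and the types were defined on the same genes, so what follows is a description. Of 6393 genes measured, 1055 or 16.5% were at least 2-fold higher in mcDC1 in both libraries and 876 or 13.7% at least 2-fold lower. Of the 39 measured genes of the mature migratory program, 37 were higher and none lower. Besides Fscn1, Ccl5, a chemokine that draws T cells, stood at 15254 CPM in RGX-104 mcDC1 and 92.0 CPM in RGX-104 rcDC1, and at 13619 and 36.8 CPM in the control library, ratios of 166 (146 to 189) and 370 (297 to 466). Socs2, a damper of cytokine signalling, stood at 751 and 3.12 CPM in the RGX-104 library and at 911 and 1.82 CPM in the control library. Il4i1, a secreted amino acid oxidase, was 190-fold higher in mcDC1 with RGX-104 and 649-fold higher with control chow. Each of these genes was low in rcDC1 and high in mcDC1 of both libraries.

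The rest of the contrast with rcDC1 ordered by function. In the NF-kB pathway 19 of 22 measured genes were higher in mcDC1 and none lower. Of 25 class I presentation genes 15 were higher, among them H2-K1, H2-D1, B2m, Psmb8 and the regulator Nlrc5, and 2 lower. Of 13 class II presentation genes 9 were lower, among them H2-Aa, H2-Ab1, Cd74 and the class II regulator Ciita, and 2 were higher (Lgmn and Ifi30, both lysosomal enzymes). Of 14 cDC1 identity genes 11 were lower and only Id2 higher. Of 10 genes of antigen uptake 7 were lower, and of 24 proliferation genes 16 were lower. Of 16 cholesterol genes 8 were higher and none lower, and of 31 oxidative phosphorylation genes none passed in either direction. Some of the lowest were Cxcl9, a chemokine for activated T cells, at 6.83 against 835 CPM in the RGX-104 library and 6.96 against 541 CPM in the control library, and Tlr3, the sensor of double-stranded RNA, at 0 in RGX-104 mcDC1 against 86.5 CPM in rcDC1. Median depth differed between the types: 8988.5 and 7686 UMIs in mcDC1 against 19292 and 16248 UMIs in rcDC1.

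Against mcDC2 fewer genes passed: of 4315 genes measured, 225 or 5.21% were higher in mcDC1 in both libraries and 78 or 1.81% lower. Laptm4b, a lysosomal membrane protein, stood at 185 CPM in RGX-104 mcDC1 against 17.5 CPM in RGX-104 mcDC2, and at 182 against 22.5 CPM in the control library, ratios of 10.6 (6.54 to 18.4) and 8.08. Sp140, a chromatin reader of immune cells, was 4.04-fold and 6.26-fold higher. Of 24 class I genes 7 were higher and none lower, namely Tap1, Tap2, Tapbpl, Psmb9, Psmb10, H2-Q4 and H2-Q6, most of them parts of peptide production and loading. Of 14 costimulatory and coinhibitory ligands Cd86, Cd70, Pdcd1lg2 and Cd200 were higher. Ccl17, a ligand of Ccr4, was lower, at 48.3 CPM against 672 CPM in the RGX-104 library and 21.6 against 362 CPM in the control library, 13.9-fold and 16.8-fold. Of 20 genes of the dissociation and stress response 10 were lower, Egr1 by 34.3-fold and 19.0-fold.

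Against mLC, a comparison added after the data were seen, 259 or 5.11% of 5065 genes were higher and 103 or 2.03% lower. Cd1d1, which presents lipids to NKT cells, stood at 141 against 4.84 CPM in the RGX-104 library and at 116 against 1.91 CPM in the control library. Pdcd1lg2, the second ligand of PD-1, stood at 54.1 against 0.969 CPM and at 57.0 against 1.91 CPM. Of 13 measured ligands of costimulation and coinhibition 8 were higher in mcDC1 and none lower, and of 12 class II genes 6 were higher. Epcam, the adhesion molecule of Langerhans cells, was 113-fold and 78.3-fold lower.

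Between chows, the LXR target genes stood out in mcDC1. Over all 6074 genes measured in mcDC1 (at least 50 UMIs over both libraries), 4.46% were at least 1.5-fold higher and 5.6% at least 1.5-fold lower in RGX-104, and the median log2 ratio was -0.03. Of 29 listed LXR targets 15 were measured, and 8 of these were at least 1.5-fold higher, far above the 4.46% of all genes, and 1 lower; their log2 ratios had a median of 1.36. The median was 0.44 with no minimum of UMIs, which lets in genes of a few UMIs. The list was chosen with earlier results of these data known.

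**Figure D2:**
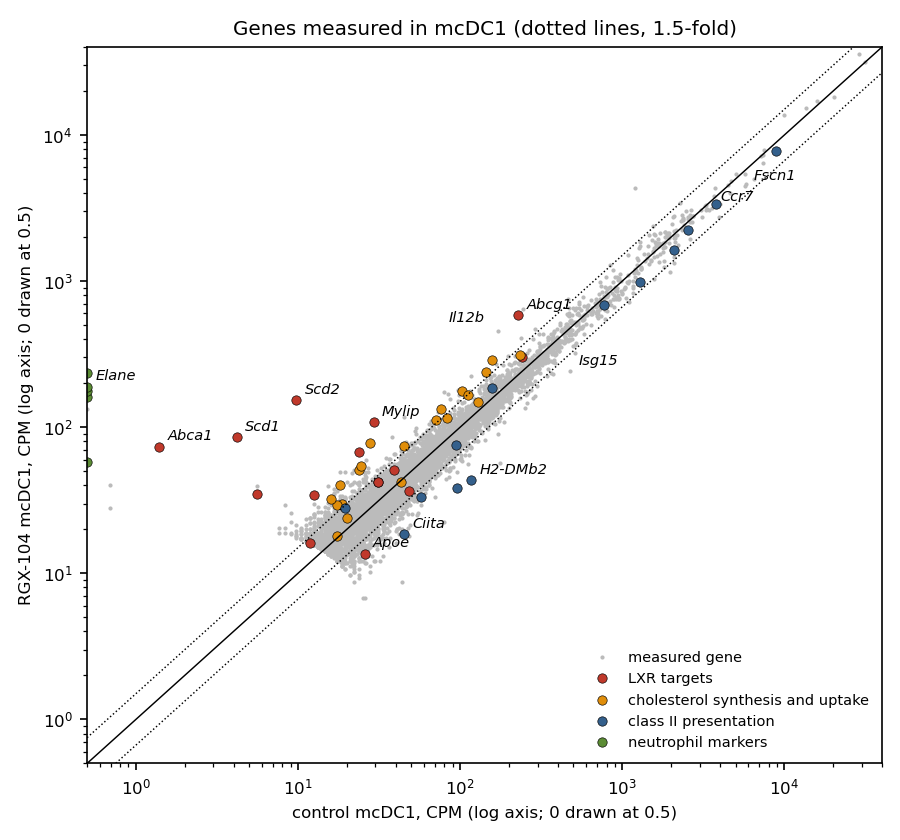
Level of every measured gene in RGX-104 mcDC1 against control mcDC1, in CPM on log axes, with lists in colour and 0 drawn at 0.5; dotted lines mark 1.5-fold. Abca1, Scd1 and Scd2 lie far above the diagonal, the neutrophil genes at the left edge come from 1 RGX-104 cell, and H2-DMb2 and Ciita lie below it.

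Of the cholesterol exporters, Abca1 had the highest ratio of all measured LXR targets. Abca1 (ENSMUSG00000015243, chr4:53030789-53159988 in GRCm38.p6), whose window is printed above, had 151 UMIs in 98 of 214 RGX-104 mcDC1 and 2 UMIs in 2 of 166 control mcDC1, or 73.6 and 1.39 CPM, a ratio of 52.9 (14.4 to 441). The wide interval comes from the 2 control UMIs. Abcg1 (ENSMUSG00000024030, chr17:31057694-31117984), which exports cholesterol to lipoprotein particles, had 1204 UMIs in 199 RGX-104 cells and 329 UMIs in 125 control cells, or 587 and 229 CPM, a ratio of 2.57 (2.27 to 2.91). Abcg1 was thus already present in most control cells, while Abca1 was nearly absent from them. Arl4c, a small GTPase tied to cholesterol export, stood at 300.2 and 239 CPM (ratio 1.26, 1.10 to 1.44), inside the limit of 1.5-fold.

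Genes of fatty acid synthesis and desaturation were higher as well. Scd1 (chr19:44394450-44407709) and Scd2 (chr19:44293676-44306864), which place the first double bond in fatty acids, stood at 85.3 and 4.17 CPM and at 153 and 9.74 CPM, ratios of 20.4 (9.21 to 56.5) and 15.7 (9.20 to 29.0). Scd1 and Scd2 are close paralogs, and how the authors' counting split reads between them is not stated. Fads2, the desaturase of polyunsaturated fatty acids, stood at 35.1 and 5.56 CPM (ratio 6.31, 3.04 to 15.2). Srebf1 stood at 67.3 and 23.6 CPM (ratio 2.84, 1.94 to 4.27), and Fasn, the fatty acid synthase, at 34.1 and 12.5 CPM (ratio 2.73, 1.61 to 4.86). Mylip (chr13:45389742-45411940), a ubiquitin ligase, stood at 109 and 29.2 CPM (ratio 3.72, 2.67 to 5.31). For all 6 the RGX-104 level was above control with an interval clear of 1.

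Other members stayed nearer to 1. Acaca and Elovl5 each had a ratio of 1.36, with intervals that include 1, and Plin2, which coats lipid droplets, had 0.751 (0.535 to 1.06). Of the receptor genes themselves, Nr1h2, which encodes LXR beta, stood at 66.8 CPM in both libraries, and Nr1h3, which encodes LXR alpha, had 4 UMIs in each and was not measured. Apoe, which accepts exported cholesterol, was the 1 member lower, at 28 UMIs in 21 RGX-104 cells and 37 UMIs in 7 control cells, a ratio of 0.530 (0.313 to 0.891). Without the top cell of each library its ratio was 1.28 (0.609 to 2.85), so its direction rests on 1 cell.

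**Figure D3:**
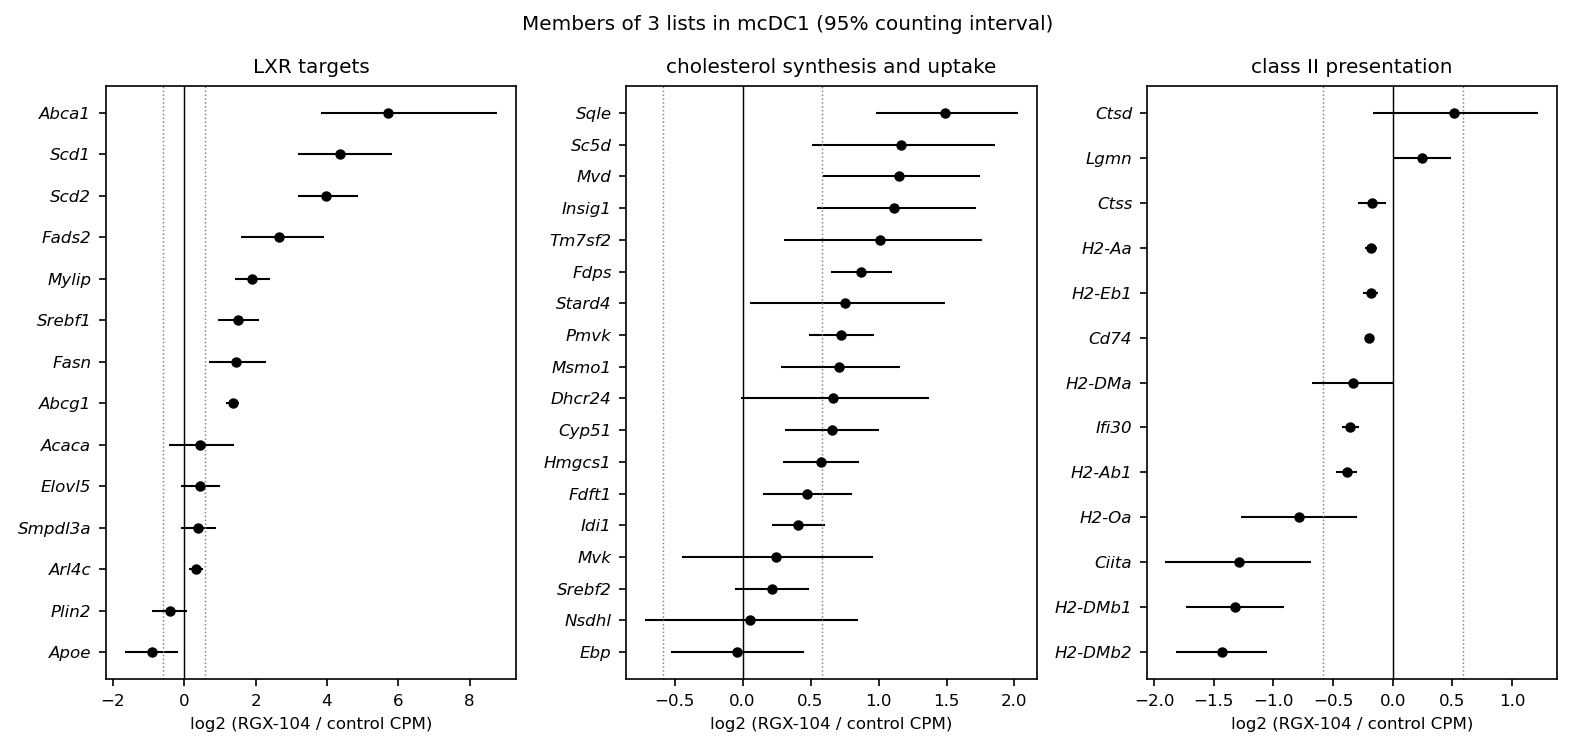
Log2 of the RGX-104 over control ratio, with 95% counting intervals, for measured members of 3 lists in mcDC1, some members not being drawn; dotted lines mark 1.5-fold. Abca1, Scd1 and Scd2 lie farthest above 0 among the LXR targets drawn, Sqle leads the cholesterol genes drawn, and 4 of 13 class II genes lie past 1.5-fold below 0.

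The LXR response was spread over the cells. The summed level of the 29 LXR targets ran from 0 to 5855 CPM with a median of 1609 CPM in RGX-104 mcDC1, and from 0 to 2512 CPM with a median of 718 CPM in control mcDC1. Of the RGX-104 cells 198 of 214 (92.5%) lay above the control median, and 8 of 166 control cells (4.82%) above the RGX-104 median. The ranges overlapped, with 26 RGX-104 cells above the highest control cell. For Abcg1 alone the median was 506 CPM in RGX-104 cells and 168 CPM in control cells. At an equal 4000 UMIs a cell, which leaves out 28 RGX-104 and 17 control cells, an Abca1 UMI would be expected in 25.4% of RGX-104 and 0.638% of control mcDC1, and a Scd2 UMI in 42.5% and 3.75%. Without thinning the shares were 45.8% and 1.20% for Abca1, and 59.8% and 7.23% for Scd2.

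Genes of cholesterol synthesis and uptake were higher as well, by less. Of the 20 that were measured 13 passed 1.5-fold on the higher side, against 4.46% of all genes, and none on the lower side; the median log2 ratio was 0.72. Sqle, the squalene epoxidase, stood at 78.0 CPM in RGX-104 and 27.8 CPM in control mcDC1 (ratio 2.80, 1.97 to 4.07). Mvd, which makes isopentenyl pyrophosphate, stood at 54.1 and 24.3 CPM, and Insig1, whose window is printed above, at 51.2 and 23.6 CPM, ratios of 2.22 (1.51 to 3.35) and 2.16 (1.46 to 3.29). Srebf2, the main regulator of the pathway, had a ratio of 1.16 (0.964 to 1.40). The per-cell sum had a median of 1700.0 CPM in RGX-104 and 1000.0 CPM in control mcDC1, and 79.4% of RGX-104 cells lay above the control median.

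The genes of T cell priming had 3 of 10 measured members higher, against 4.46% of all genes, and none lower. Their log2 ratios had a median of 0.16. Other types also had members higher: 5 of 12 in rcDC1, 4 of 8 in mono, 3 of 10 in rcDC2 and 2 of 9 in mcDC2. In mLC 0 of 9 were higher. Over all genes the shares higher in these 5 types lay between 4.08% and 7.80%. Members lower numbered 1 in rcDC1, 2 in mcDC2 and 1 in mLC. Il12b (ENSMUSG00000004296, chr11:44400063-44414677), the p40 chain shared by the cytokines IL-12 and IL-23, had 938 UMIs in 77 RGX-104 mcDC1 (36.0%) and 247 UMIs in 38 control mcDC1 (22.9%). This is 457 and 172 CPM, a ratio of 2.66 (2.31 to 3.07). The transcript was concentrated: 10 cells held 64.1% of the RGX-104 and 78.1% of the control UMIs, and without the top cell of each the ratio was 2.76 (2.36 to 3.23). At an equal depth of 4000 UMIs the expected shares were 26.8% and 17.3%, and in T cells, which should lack it, 0.100% and 0.143% had a UMI. Il12a, which pairs with it in IL-12, had 1 UMI in each library, and Il23a had none.

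The chemokines for Ccr4 were the other members higher. Ccl22 (chr8:94745684-94751388), which attracts regulatory and helper T cells, stood at 756 CPM in RGX-104 and 465 CPM in control mcDC1 (ratio 1.62, 1.48 to 1.78). Ccl17, which binds the same receptor, stood at 48.3 and 21.6 CPM (ratio 2.24, 1.48 to 3.47). Ccl5 had a ratio of 1.12 (1.10 to 1.14), Il15, a survival factor of CD8 T cells, 1.06 (0.921 to 1.21), and Cxcl16 0.874 (0.816 to 0.937), none past 1.5-fold.

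Few genes of maturation passed between chows. Of 40 genes of the mature migratory program, all measured, only Ccl17 and Ccl22 passed 1.5-fold on the higher side, a share near the 4.46% of all genes, and the median log2 ratio was -0.08. Ccr7 had a ratio of 0.894 (0.862 to 0.928) and Fscn1 (chr5:142960355-142973189) one of 0.784 (0.761 to 0.808). No gene of the NF-kB pathway passed in either direction of 22 measured. Of 15 ligands of costimulation and coinhibition only Vsir passed, at 20 and 11.8 CPM with an interval of 0.939 to 3.17 on its ratio of 1.69. Cd40, the receptor through which helper T cells license dendritic cells, stood at 376 and 515 CPM (ratio 0.731, 0.660 to 0.810). Cd274, the PD-1 ligand, stood at 313 and 322 CPM (ratio 0.973, 0.862 to 1.10). Of 25 class I genes 1 passed, Wdfy4, which rests on 1 control cell, and H2-D1 and H2-K1 had ratios of 0.773 (0.752 to 0.795) and 0.876 (0.854 to 0.899).

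Of the 13 class II presentation genes measured, 4 passed 1.5-fold on the lower side, against 5.6% of all genes, and none on the higher side; the median log2 ratio was -0.33. Without the 33 RGX-104 and 33 control cells that carry transcripts of another lineage the median was -0.0637. H2-DMb2 (chr17:34143229-34151553), a chain of the H2-DM chaperone that loads peptide on class II, had 89 UMIs in RGX-104 and 168 UMIs in control mcDC1, or 43.4 and 117 CPM, a ratio of 0.371 (0.284 to 0.483). H2-DMb1, its neighbour and near copy, stood at 38.5 and 96.0 CPM (ratio 0.401, 0.300 to 0.533). Reads of such near copies can be split between them, so the pair is best read together. Ciita, the master regulator of class II genes, stood at 18.5 and 45.2 CPM (ratio 0.410, 0.267 to 0.621), and H2-Oa, a modulator of H2-DM, had 0.581 (0.415 to 0.812). The class II chains and the invariant chain were closer to 1, with H2-Aa at 0.881 (0.850 to 0.913), H2-Ab1 at 0.765 (0.718 to 0.815) and Cd74 at 0.870 (0.850 to 0.891).

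The cells named mcDC1 fell into 2 ranges of class II, and the range changed how several chow ratios read. The ranges were cut at a per-cell class II sum of 20000 CPM after the values were seen, so class II levels within them are a description. Above the cut were 35 of 214 RGX-104 cells (16.4%, 11.7 to 22) and 44 of 166 control cells (26.5%, 20 to 33.9), with 11 RGX-104 and 13 control cells between 15000 and 25000 CPM. Median class II sums were 49607 and 48739 CPM above the cut and 5629 and 6348 CPM below it. The upper cells had more Cd8a (214 and 137 CPM, against 9.07 and 13.0 CPM below the cut), less Ccl5 (3993 and 4536 CPM, against 17961 and 17607 CPM) and 14 of the 15 Xcr1 UMIs, which sat in 3 RGX-104 cells and 1 control cell, while Fscn1 stood at 4835 and 5359 CPM above and at 4405 and 5886 CPM below. None of the cells with a top doublet score lay above the cut.

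H2-DMb2, H2-DMb1 and Ciita had higher levels above the cut than below it in both libraries. H2-DMb2 stood at 199 CPM in RGX-104 and 369 CPM in control cells above the cut, a ratio of 0.538 (0.406 to 0.709), and at 6.05 and 6.01 CPM below it, a ratio of 1.01 (0.332 to 3.37). H2-DMb1 had 46 and 119 UMIs above the cut, a ratio of 0.427 (0.297 to 0.604), and 33 and 19 UMIs below it, a ratio of 1.05 (0.579 to 1.95). Of the 119 control UMIs 28 came from 1 cell. Over all mcDC1 without the top cell of each library its ratio was 0.465 (0.341 to 0.631). Ciita had 0.498 (0.307 to 0.791) above, and 10 and 3 UMIs below. H2-Aa went the other way above the cut, at 12848 and 9592 CPM (ratio 1.34, 1.29 to 1.40). In the cells below it, the class II list had a median log2 ratio of -0.14.

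Il12b also differed by range, which the cut did not use. In the cells above it stood at 1406 CPM in RGX-104 and 150.4 CPM in control, detected in 16 of 35 and 9 of 44 cells, a ratio of 9.35 (7.23 to 12.3). In the cells below it stood at 229 and 181 CPM (ratio 1.26, 1.06 to 1.52), under 1.5-fold. Most of the difference in Il12b was thus in the smaller range, which held 559 of the 938 RGX-104 UMIs. Ccl22 was the reverse, at 639 and 641 CPM above the cut and 784 and 388 CPM below it, ratios of 0.998 (0.839 to 1.19) and 2.02 (1.80 to 2.27). Ccl17 was higher below the cut as well, 2.32-fold (1.48 to 3.76). Abcg1 had ratios of 2.66 (2.05 to 3.49) above and 2.46 (2.14 to 2.84) below, and Scd2 of 13.8 (5.06 to 52.6) and 15.9 (8.50 to 33.5), with intervals that overlap between the ranges.

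**Figure D4:**
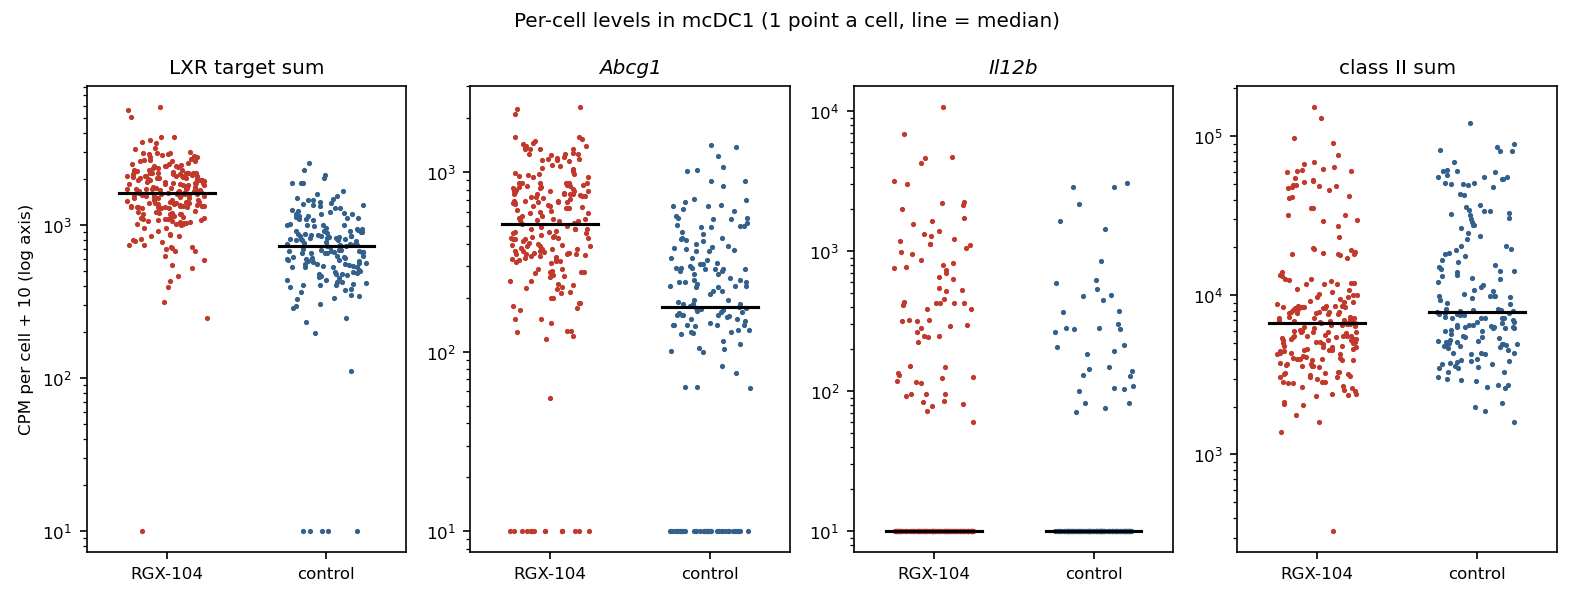
Per-cell levels in RGX-104 and control mcDC1 as CPM + 10 on a log axis, 1 point a cell with the median as a line, for the LXR target sum, Abcg1, Il12b and the class II sum. The LXR target sum is shifted upward over most RGX-104 cells, Il12b is at 0 in most cells of both, and the class II sum has a main range and an upper group above 20000 CPM in both libraries.

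In the type I interferon list 3 of 17 measured genes passed 1.5-fold on the lower side, against 5.6% of all genes, and none on the higher; the median log2 ratio was -0.18. Isg15, a ubiquitin-like protein induced by interferon, stood at 241 CPM in RGX-104 and 476 CPM in control mcDC1 (ratio 0.506, 0.450 to 0.569). Bst2, which tethers virus particles, stood at 232 and 375 CPM (ratio 0.618, 0.545 to 0.700), and Ifi27l2a had 0.666 (0.574 to 0.771). Rsad2, an antiviral enzyme, had a ratio of 1.21 (0.877 to 1.68). By range, Isg15 had a ratio of 0.405 (0.349 to 0.469) in cells below the class II cut and 0.909 (0.746 to 1.11) above it. Below the cut an Isg15 UMI was present in 43.0% of RGX-104 and 44.3% of control cells. Over all mcDC1, 10 cells held 51.6% of the RGX-104 and 60.2% of the control Isg15 UMIs. Ly6e, another interferon-induced surface protein, had a ratio of 0.319 over all mcDC1, with 38.8% of its control UMIs from 1 cell and 0.404 (0.308 to 0.527) without the top cells.

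Among the remaining lists few members passed, and their counts stand beside 4.46% of all genes higher and 5.6% lower. Of 20 stress and immediate early genes 2 were higher, Nr4a3 at 174 and 80.0 CPM (2.17, 1.75 to 2.70) and Nr4a2 at 155 and 86.9 CPM (1.78, 1.45 to 2.21), both nuclear receptors induced by stimulation, while Fos (0.562, and 0.714 without the top cells), Ier3 (0.572) and Jun (0.613) were lower. In oxidative phosphorylation 1 of 31 passed, Sdhb at 0.649, and in glycolysis 1 of 14, Pfkl at 0.607. In proliferation 4 of 14 were lower: Hmgb2, at 0.658 (0.752 without the top cells), and Cenpf, Ube2c and Top2a, the last 3 with 97.5%, 89.9% and 58.3% of their control UMIs from 1 cell; without the top cell of each library their ratios were 2.10, 1.0 and 0.645. Of 28 genes of migration and cytoskeleton only Itgb7 passed, at 0.537 (0.298 to 0.957); without the top cells it stood at 0.701 (0.364 to 1.35), inside 1.5-fold, and its log2 ratio was 0.16 without cells of another lineage and 0.42 in cells below the class II cut. Mt1, a metal-binding protein, stood at 645 and 243 CPM (ratio 2.65, 2.35 to 2.99), and was named after its values were seen. By range, its ratio was 0.946 (0.670 to 1.33) above the class II cut and 2.78 (2.44 to 3.18) below it. Other genes with the most extreme ratios rested on few cells or few UMIs. Prtn3 and Mpo, granule proteins of neutrophil precursors, had 274 and 119 UMIs with RGX-104 and none in control, at least 99% of them from the 1 cell above, and Ly6c2 had 57 and 1 UMIs, 89.5% of the RGX-104 ones from 1 cell. Lyz2, the lysozyme of myeloid cells, had a ratio of 0.283 and 0.443 without the top cells, but its log2 ratio turned to 0.90 without cells of another lineage. Above the class II cut its ratio was 1.5 (0.646 to 3.62) and below it 0.182 (0.118 to 0.274). Of its 103 control UMIs below the cut 57 came from 1 cell, so the lower ratio there rests largely on that cell. Ppt1, a lysosomal thioesterase, had 0.399 and, without the top cells, 0.601. Eml2, a microtubule-associated protein, had 14 and 36 UMIs (ratio 0.273, 0.136 to 0.518), and Dll4, a Notch ligand, 14 and 37 UMIs (0.265, 0.132 to 0.502).

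Beside the other APC types, the LXR ratios of mcDC1 lay within the range of the rest, and that of Il12b above it. Abcg1 was 2.57-fold higher in mcDC1 and between 2.14-fold (mLC) and 4.14-fold (rcDC2) higher in the other 5 types. Scd2 was 15.7-fold higher in mcDC1, against 18.2-fold in mono and 5.28-fold in mLC, with rcDC1 at 8.91, mcDC2 at 8.35 and rcDC2 at 7.31. The LXR list median was 1.36 in mcDC1, 2.32 in mcDC2, 1.74 in rcDC2, 1.37 in mLC, 0.78 in rcDC1 and 0.20 in mono. The medians rest on different measured members, 15 in mcDC1 and 8 in mcDC2. Cholesterol genes had a median of 0.72 in mcDC1, between 1.95 in rcDC2 and 0.39 in mLC. The class II median was -0.33 in mcDC1, -0.72 in mcDC2, -0.18 in mLC, -0.10 in rcDC2, 0.07 in rcDC1 and 0.33 in mono. In mcDC2, 8 of 12 measured class II genes were at least 1.5-fold lower, against 7.34% of all genes there.

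The interval of a gene's chow ratio in mcDC1 lay above those of every other type where it was measured for 11 of 4628 genes (0.238%) and below for 12 (0.259%). Il12b was among the first: its ratio of 2.66 in mcDC1 stood beside 1.11 (0.907 to 1.37) in mLC, 0.918 (0.758 to 1.11) in rcDC1 and 0.655 (0.475 to 0.909) in mcDC2. In both of the last, 1 control cell held much of the Il12b, 42.9% of the UMIs in rcDC1 and 43.3% in mcDC2; without the top cells of each library the ratios were 1.21 (0.954 to 1.54) in rcDC1 and 0.927 (0.620 to 1.40) in mcDC2. Jdp2, a repressor of AP-1, had 81 and 8 UMIs in mcDC1, a ratio of 7.10 (3.44 to 17.0), beside 1.48 in rcDC1 and 0.874 in rcDC2. In mcDC1, 1 RGX-104 cell held 32.1% of its UMIs, and without the top cells the ratio was 6.43 (2.77 to 18.3). Types under 50 UMIs were left out of that comparison, but Jdp2 was higher with RGX-104 in them too. Its ratio was 9.83 (2.56 to 83.8) in mcDC2, on 43 and 2 UMIs. In mLC it was 4.06 (1.09 to 22.4) and in mono 2.50 (1.09 to 6.40). Its rise was thus not particular to mcDC1. Mt2, a metallothionein like Mt1, had 2.23 (1.64 to 3.08) in mcDC1, 0.842 in mcDC2 and 1.08 in mLC. Among types under 50 UMIs, Mt2 had a ratio of 3.57 (1.26 to 13.9) in rcDC2, on 31 and 4 UMIs. In rcDC1 it had 7 UMIs with RGX-104 and 0 in control, so its rise was not particular to mcDC1 either. Among the lower genes, Bst2 had 0.618 in mcDC1 and between 0.995 and 1.27 in the other types. Zmynd15, a zinc finger protein, stood at 549 and 780 CPM in mcDC1, a ratio of 0.704 (0.648 to 0.765), beside 1.12 (1.03 to 1.21) in mLC and 1.32 (1.08 to 1.62) in mcDC2. H2-DMb2 was lower in another type too, with 0.371 in mcDC1 and 0.270 in mcDC2. These sets share the chow libraries, and no test of a difference between types can be had from 1 library each.

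**Figure D5:**
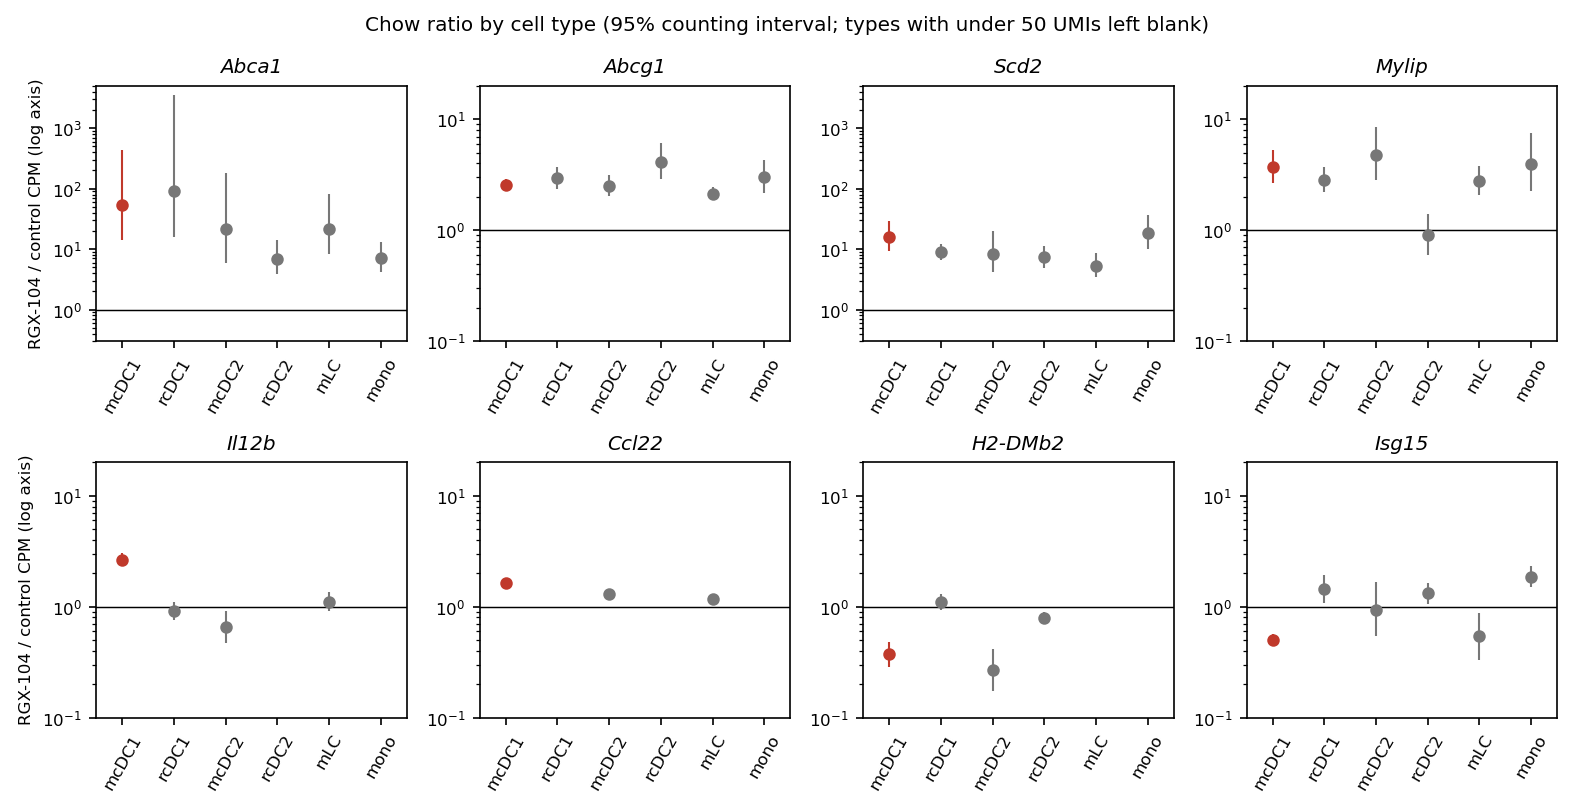
RGX-104 over control ratio with 95% counting intervals, on a log axis, for 8 genes in the 6 compared types, mcDC1 in red; types under 50 UMIs are blank. Abca1, Abcg1 and Scd2 lie above 1 in every type, Il12b lies clearly above 1 in mcDC1, and H2-DMb2 lies below 1 in mcDC1, mcDC2 and rcDC2.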

How the data were processed

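Counts of UMIs per gene and barcode were deposited by the authors. Per the file headers they come from Cell Ranger 5.0.0, and mm10 and Seurat 5.0.3 stand in the submitters' processing notes. The authors' deposited annotation gives each cell's total counts, mitochondrial percent, cell cycle score and type name, without barcodes. Annotated cells were joined to barcodes by their totals, detected genes and mitochondrial percent over genes in at least 3 barcodes of the library; all 5825 matched exactly 1. The libraries shared 95 barcodes, 1 of them among APCs. T cell receptor contigs were not used.

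UMIs were summed over the mcDC1 of each library (Python 3.11.15, numpy 2.4.6, pandas 2.3.3, scipy 1.17.1) and scaled to CPM. Ratios carry exact conditional binomial, CPM exact Poisson and shares Clopper-Pearson intervals. A gene is measured where the libraries together hold at least 50 UMIs, and called past 1.5-fold (past 2-fold in both libraries between types). Types were compared with at least 50 cells in each library, and a bound against 0 takes 3 counts. The calculations were tested on simulated data with Poisson counting error, which the intervals also assume. That test does not cover UMIs that cluster in single cells. Members, gene lists and comparisons were chosen with earlier results of these data known. Named genes are the 10 highest and 10 lowest ratios by the bound nearest to 1 with at least 20 CPM, up to 4 members of each list, and 19 genes in all cases; others were named after their values were seen. Scrublet (scanpy 1.11.5) marked 0 barcodes by its own threshold, so the 6% with the highest scores were removed in an alternative. Other alternatives were TMM factors (edgeR 4.0.16, R 4.3.3), other factors and minimums, and other sets of cells. Counts and medians cover whole lists, while some members are not reported singly here. RefSeq positions matched 101 of 102 named genes.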

Additional observations from a re-analysis of the deposited data

Results flagged for a closer look

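These differences between types were not tested, since each chow has 1 library; they are given because the ratios went in opposite directions with intervals clear of 1, or, for the list, because the medians had opposite signs. The Apoe ratio was 0.530 in mcDC1 (28 and 37 UMIs, with 67.6% of the control UMIs from 1 cell) and 2.04 (1.74 to 2.40) in mono. The Il12b ratio was 2.66 in mcDC1 and 0.655 (0.475 to 0.909) in mcDC2, where 43.3% of the control UMIs came from 1 cell; without the top cells it was 0.927 (0.620 to 1.40) there, an interval that includes 1. The class II list had a median log2 ratio of -0.33 in mcDC1 and of 0.33 in mono. In mcDC2 that median was -0.72 and in mLC -0.18, so a lower class II list was not particular to mcDC1.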

How the results depend on the processing

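No paired analysis was possible because each chow has 1 library. Of 13 main results 5 kept their value within the limits used under every alternative run. The count of genes at least 1.5-fold higher in RGX-104 mcDC1 was 271, and 647 with a minimum of 20 UMIs, 62 with 200, 1413 with none and 59 at 2-fold; for lower genes it was 340, and 778, 60, 1685 and 48. Genes higher and lower than in rcDC1 numbered 1614 and 1421 at 1.5-fold and 508 and 351 with a minimum of 200 UMIs; for mcDC2, 757 and 211, and 88 and 28. The LXR median of 1.36 was 0.44 with no minimum, 1.54 without each gene's top cells and 1.63 without the 33 RGX-104 and 33 control cells carrying another lineage's transcripts. The class II median of -0.33 was -0.0637 without those cells, -0.0584 among cells with both cycle scores under 0, and -0.14 among cells with class II under 20000 CPM, a set chosen after seeing the data.

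Directions turned for 17 of 1396 values of named genes, as log2 ratios. Without cells of another lineage Ly6c2 was -0.14, Lyz2 0.90, Itgb7 0.16 and Apoe 1.67. Without the top cells Apoe was 0.36 and Ube2c 0.00183. Without the 2 cells of another program, a set chosen after seeing the data, Cenpf was 3.85 and Ube2c 1.82. Among cells with cycle scores under 0 Wdfy4 was 0.0647. Among cells with class II under 20000 CPM Itgb7 was 0.42, Cenpf 2.08, Ube2c 2.34, Top2a 0.50, H2-DMb2 0.00982, Dll4 0.00982, H2-DMb1 0.0693 and Ciita 1.01. The cause was not tested. Depth limits genes under 50 UMIs, among them Nr1h3 and Xcr1.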

Other observations

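Cells with an Il12b UMI were compared with the other mcDC1 of their library, a description chosen after the data were seen. In RGX-104 mcDC1 the 77 cells with Il12b had 289 CPM of Nr4a3 and the other 137 cells 93.3 CPM, a ratio of 3.10 (2.47 to 3.92); in control mcDC1 the levels were 112 and 67.9 CPM, a ratio of 1.65 (1.11 to 2.44). The ratio of H2-Aa in cells with Il12b over those without was 1.76 (1.68 to 1.85) in the RGX-104 library and 0.999 in the control library. Of the LXR targets, RGX-104 cells with and without Il12b had 76.2 and 71.8 CPM of Abca1 and 608 and 573 CPM of Abcg1. Cells with an Il12b UMI were deeper, with median UMIs of 10651 against 8449 in RGX-104 and 10578.5 against 7310.5 in control.

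Mki67, a marker of dividing cells, stood at 10.1 CPM in RGX-104 and 146 CPM in control mcDC1 above the class II cut, and at 44.1 and 5.01 CPM below it. Above the cut this was 4 UMIs in 2 RGX-104 cells and 64 UMIs in 9 control cells. Of Cenpf and Ube2c, 97.5% and 89.9% of the control UMIs came from 1 cell, and that share is not given here for Mki67. The levels therefore do not show where dividing cells lie in general. Dll4, a Notch ligand, stood at 10.1 and 70.7 CPM above and at 6.05 and 6.01 CPM below, and Cd40 at 536 and 796 CPM above and 338 and 391 CPM below.

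Barcodes outside the annotation also carried the markers. Of 5727 RGX-104 and 4465 control barcodes without an annotation, 193 and 123 had a UMI each of Ccr7, Fscn1 and Irf8, as 170 and 124 of the annotated mcDC1 did, and 1 in each library had all 5 markers. Ccr7 and Fscn1 were high in all migratory types and Irf8 was present in mcDC2 too, so these barcodes cannot be called mcDC1. The same count for mcDC2 and mLC is not given here. The annotation also holds 32 RGX-104 and 12 control cells named Gm26917+ mcDC, with median UMIs of 2048 and 1972.5; counting them as mcDC1 moved the ratio of shares of APCs to 1.14 (0.935 to 1.39). Without plasmacytoid cells, of which the libraries held 9 and 53, that ratio was 1.0 (0.813 to 1.23).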
